A study of Caenorhabditis elegans with 6 samples.

Results

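The comparison set worms fed RNAi bacteria against daf-2 beside worms fed bacteria with the empty vector. Its members were 2 daf-2 RNAi libraries and 2 empty vector libraries, 4 of the 6 in the series, and every gene with enough counts. Of 46254 genes with a count value, 14378 were tested. All groups were whole Caenorhabditis elegans of the strain CF512, placed as eggs on their RNAi food at 25 °C, where 48 h make this strain sterile, and collected on day 1 of adulthood. The groups were thus daf-2 RNAi, cav-1 RNAi and empty vector, the last also labelled untreated, each with repeats 1 and 2. The cav-1 RNAi libraries entered the fit for its estimate of the spread and are cited where they bear on a daf-2 RNAi value. RNAi by feeding lowers a transcript and does not delete the gene, and each library mixes all tissues of the worms, so that fewer cells of a type and less RNA per cell cannot be told apart.

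daf-2 encodes the only insulin/IGF-1 receptor of the worm. When an agonist insulin-like peptide binds, the receptor acts through the phosphoinositide 3-kinase AGE-1 and AKT kinases to keep the transcription factor DAF-16 out of the nucleus. With less receptor activity DAF-16 enters the nucleus, the genes known as its class 1 targets rise, and class 2 genes, whose promoters carry an element bound by PQM-1, fall. Worms with low daf-2 activity are known for long life, resistance to stress and infection, stored fat and, early in life, entry into the dauer larva.

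Under daf-2 RNAi 620 genes rose and 450 fell against empty vector, 4.31% and 3.13% of the genes tested and 7.44% in all. The counts behind these values summed to 28033393 and 32886440 in the daf-2 RNAi libraries, against 25474328 and 29462916 in the empty vector libraries. Levels are CPM, shares of a library's counts scaled between libraries, and fold changes are differences of log2(CPM + 1), which understates the change of genes near or below 1 CPM. A gene was called where limma's moderated test, with the repeat as a block, gave a Benjamini-Hochberg adjusted p below 0.05 over the 14378 genes. Without that block limma called 0 genes, with 777 at an unadjusted p under 0.05, against 3486 with it. The number called was 665 without daf-2 RNAi 2, 1808 without empty vector 1 and 2212 without cav-1 RNAi 2. The labels call the repeats biological and say no more on how they were made, so a p-value measures only the spread between these samples.

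The genes that rose made up 9.34% and 7.995% of the scaled counts in daf-2 RNAi repeats 1 and 2, against 3.92% and 3.10% in empty vector. Those that fell made up 0.729% and 0.571% in daf-2 RNAi, against 2.03% and 2.56% in empty vector. They had a median level of 3.29 CPM, below the 10.8 CPM of the genes that rose and the 14.7 CPM of all tested genes. Each repeat gives a fold change of its own, and the repeats share no library. Of all tested genes 75.3% moved the same way in both, and across genes, which are not independent replicates, Pearson's r was 0.705 and Spearman's rho 0.695. Changes over 2-fold in the same direction in both repeats were found for 514 genes, 256 higher and 258 lower, and 7 genes changed over 2-fold in opposite directions. All 1070 called genes moved the same way in both repeats, and in 958 of them (89.5%) the levels of the groups did not overlap, against 27.7% of all tested genes. The calls were made on these same libraries by a test that favours genes whose repeats agree. Their agreement and lack of overlap are thus largely set by the selection and are no separate support.

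The libraries held transcripts of the main somatic tissues, with 14 of 15 intestine, 12 of 14 hypodermis, 15 of 15 muscle and 16 of 16 neuron markers tested. They also held 20 of 20 oocyte and germ line markers, while 2 of 13 sperm markers had enough counts. The 12 mitochondrially encoded genes set the repeats apart, with sums of 36043 and 16519 CPM in daf-2 RNAi, against 38836 and 4690 CPM in empty vector. Their median fold change was -0.00 in repeat 1 and 1.45 in repeat 2, and limma called 0 of them, with 4 at an unadjusted p under 0.05, while 8 rose without empty vector 1, 6 without daf-2 RNAi 1 and 1 without cav-1 RNAi 2. Whether the low sum in empty vector 2 has a part in other values was not tested.

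**Figure D1:**
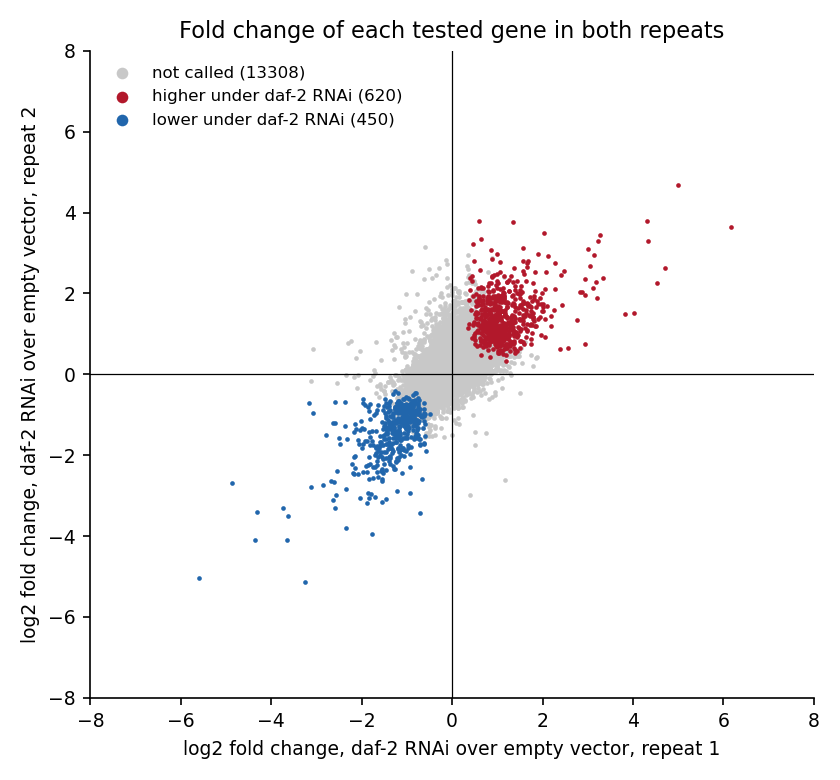
Log2 fold change of daf-2 RNAi over empty vector for each of the 14378 tested genes in repeat 1 (horizontal axis) and repeat 2 (vertical axis), with called genes in colour. The 620 higher genes lie in the upper right and the 450 lower genes in the lower left.

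daf-2 itself, at chrIII:2994514-3040846 (WBcel235), stood at 26.4 and 30.6 CPM in daf-2 RNAi repeats 1 and 2, against 42.6 and 188 CPM in empty vector (log2 -1.63, SE 0.39, adjusted p = 0.0300). Both daf-2 RNAi libraries were below both empty vector libraries, narrowly in repeat 1. The fall was -0.67 in repeat 1 and -2.58 in repeat 2. It did not pass without daf-2 RNAi 2 (-0.53, adjusted p = 0.653), without empty vector 2 (-1.09, adjusted p = 0.109) or without cav-1 RNAi 1 (-1.59, adjusted p = 0.0683). The remaining calls named here passed with each of the 6 libraries left out in turn, except where a value without a library is given. Each such fit estimates the shared spread anew. A call kept or lost thus reflects that estimate as well as the library left out. The cav-1 RNAi libraries are outside this contrast, and the fold change of daf-2 was -1.59 without cav-1 RNAi 1 and -1.63 without cav-1 RNAi 2. The caveolin gene cav-1 also fell, to 42.7 and 21.2 CPM under daf-2 RNAi, against 178 and 184 CPM in empty vector (log2 -2.55, SE 0.33, adjusted p = 0.00191).

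Among the 8 largest rises in CPM were transcripts of the cuticle, of lysosomal digestion and of the long noncoding RNA tts-1. tts-1, a ribosome-associated RNA known to be abundant in daf-2 mutants and transcribed from chrX:1504131-1504841, stood at 6446 and 2468 CPM under daf-2 RNAi, against 3113 and 709 CPM in empty vector (log2 1.42, SE 0.25, adjusted p = 0.00752). The groups overlapped, since empty vector 1 lay above daf-2 RNAi 2, and within each repeat daf-2 RNAi was higher. With cav-1 RNAi 2 left out it did not pass (1.42, adjusted p = 0.0931). The collagen gene Y69H2.14, named col-42 in the reference list, reached 1748 and 1709 CPM under daf-2 RNAi, against 505 and 640 CPM in empty vector (log2 1.60, SE 0.22, adjusted p = 0.00248). F23D12.11, whose role is not given in the files, stood at 2032 and 953 CPM in daf-2 RNAi worms, against 771 and 262 CPM in empty vector (log2 1.63, SE 0.24, adjusted p = 0.00390). The collagens col-80 (log2 1.17) and col-20 (1.07) also rose. The call of col-80 was lost without daf-2 RNAi 1 (1.04, adjusted p = 0.0541) and without cav-1 RNAi 2 (1.17, adjusted p = 0.0964), and that of col-20 without empty vector 2 (0.94, adjusted p = 0.0667) and cav-1 RNAi 2 (1.06, adjusted p = 0.0880).

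The aspartyl protease gene asp-4, a cathepsin D of the lysosome, and the collagen gene col-101 were called at 0.89 and 0.93, but each lost its call without any of 4 libraries. These were daf-2 RNAi 1, empty vector 1, cav-1 RNAi 1 and cav-1 RNAi 2, with adjusted p of 0.323, 0.175, 0.0803 and 0.248 for asp-4 and 0.216, 0.124, 0.112 and 0.326 for col-101. The eighth was C17F4.7 (log2 1.27), which did not pass when cav-1 RNAi 2 was left out (1.27, adjusted p = 0.105). These levels are not corrected for transcript length, so they rank changes in counts and not in molecules.

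Among the 8 largest falls in CPM, the yolk protein gene vit-5 at chrX:3403471-3408603 stood at 3204 and 1943 CPM under daf-2 RNAi, against 9328 and 17436 CPM in empty vector (log2 -2.35, SE 0.38, adjusted p = 0.00527). The groups did not overlap, and the gene did not pass with cav-1 RNAi 1 left out (-2.32, adjusted p = 0.0752) or cav-1 RNAi 2 (-2.36, adjusted p = 0.0743). Of 6 yolk protein genes tested vit-5 alone was called, and their median was 0.07 in repeat 1 and -0.88 in repeat 2. The 6 summed to 40527 and 42158 CPM under daf-2 RNAi, against 42932 and 81880 CPM in empty vector. T24B8.5, a small secreted peptide gene used as a reporter of p38 MAP kinase immunity, stood at 38.9 and 18.5 CPM, against 345 and 133 CPM in empty vector (log2 -2.95, SE 0.23, adjusted p = 0.000139). The invertebrate lysozyme gene ilys-5 stood at 60.5 and 15.9 CPM in daf-2 RNAi worms, against 208 and 258 CPM in empty vector (log2 -2.85, SE 0.40, adjusted p = 0.00284). In both genes every daf-2 RNAi library was far below every empty vector library. The uncharacterised genes T01D3.6 (-1.24) and ZC373.2 (-1.02) and hcp-1 (-0.87), which encodes a kinetochore protein, were called too, and none of these calls held without daf-2 RNAi 1, daf-2 RNAi 2 or empty vector 1. The adjusted p was then 0.0882, 0.0884 and 0.0576 for T01D3.6, 0.477, 0.0851 and 0.0576 for ZC373.2, and 0.378, 0.358 and 0.160 for hcp-1. Without empty vector 2 the calls of ZC373.2 (adjusted p = 0.115) and hcp-1 (adjusted p = 0.193) were also lost. The adjacent sequence names Y62H9A.5 (-0.97) and Y62H9A.6 (-1.13) also fell, and reads of such neighbours cannot always be told apart. Y62H9A.6 lost its call without daf-2 RNAi 1 (-0.73, adjusted p = 0.355), and Y62H9A.5 without daf-2 RNAi 1 (-0.68, adjusted p = 0.405), daf-2 RNAi 2 (-1.04, adjusted p = 0.109) and empty vector 1 (-0.86, adjusted p = 0.112).

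**Figure D2:**
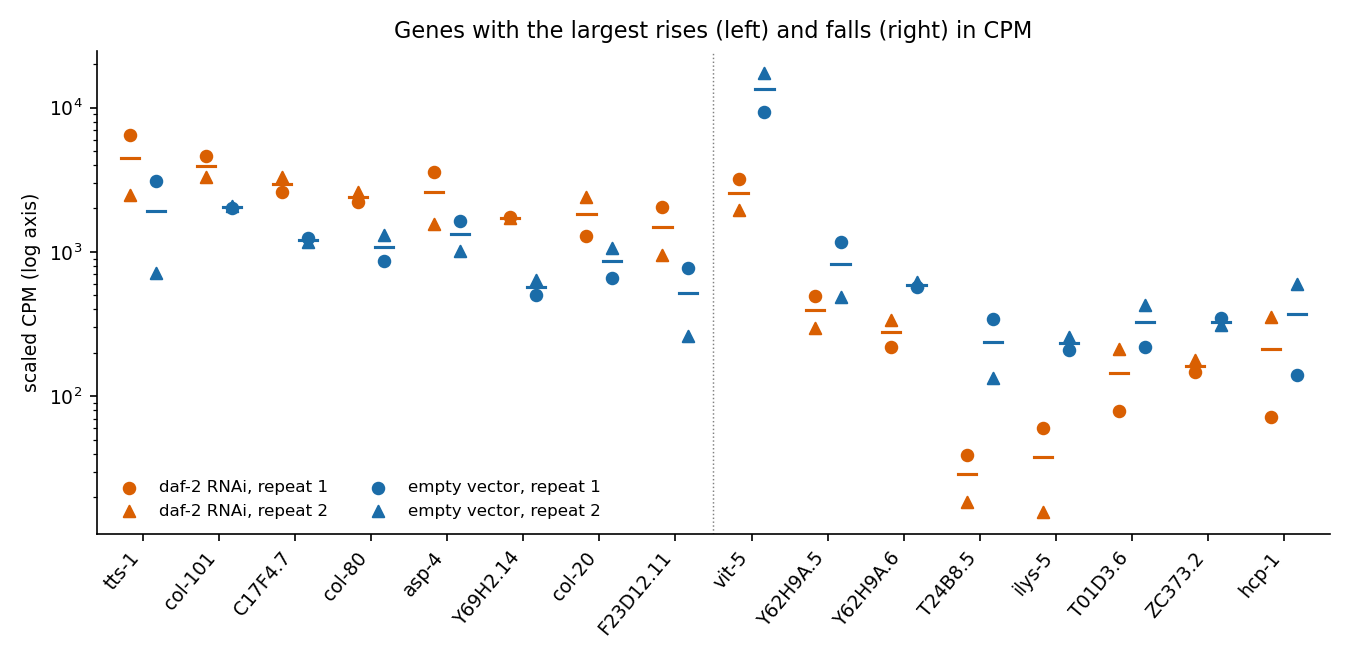
Scaled CPM (log axis) of the 8 called genes with the largest rise and the 8 with the largest fall in CPM, in daf-2 RNAi (left of each pair) and empty vector (right of each pair), with circles for repeat 1, triangles for repeat 2 and bars for the mean of both. The groups stand apart for vit-5, T24B8.5 and ilys-5, and overlap for tts-1, asp-4, Y62H9A.5 and hcp-1.

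Few genes of the receptor's own pathway passed the test. Of 24 tested genes of insulin receptor signalling daf-2 alone was called (median -0.24, beside -0.05 for all tested genes), with 5 at an unadjusted p under 0.05. The forkhead factor daf-16 stood at 96.6 and 159 CPM under daf-2 RNAi, against 71.7 and 137 CPM in empty vector (log2 0.32, adjusted p = 0.361). The kinase gene age-1 was at -0.44 (adjusted p = 0.272). In the DAF-16 class 1 list 12 of 32 tested genes rose (37.5%) and 2 fell (median 0.79). In the class 2 list 1 of 20 rose and 6 fell (30%), with a median of -0.45. Of all tested genes 4.31% rose and 3.13% fell. The class 1 rises numbered 8 without the filter on low counts, and 9 of 27 with genes under a mean of 5 CPM left out. With a library left out the class 1 median ran from 0.69 (empty vector 1) to 1.02 (daf-2 RNAi 2). The gene pqm-1, whose product binds the class 2 element, stood at 0.86 (adjusted p = 0.0538). sod-3, the mitochondrial superoxide dismutase and the standard reporter of DAF-16, reached 53.5 and 60.4 CPM, against 12.1 and 13.2 CPM in empty vector (log2 2.09, SE 0.25, adjusted p = 0.00156). dod-6, a class 1 gene of unassigned function, reached 647 and 426 CPM, against 121.5 and 77.1 CPM in empty vector (log2 2.43, SE 0.24, adjusted p = 0.000582). In both genes the lower daf-2 RNAi library was over the higher empty vector library.

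Downstream and parallel regulators contributed few calls. Of 16 genes of AMP-activated kinase and its upstream kinase, aakg-4, a gamma subunit, rose (39.2 and 32.1 CPM, against 13.99 and 15.9 CPM in empty vector, log2 1.19, SE 0.28, adjusted p = 0.0267), while the catalytic subunit aak-2 was at 0.25 (adjusted p = 0.499). The aakg-4 call was lost without daf-2 RNAi 1 (0.92, adjusted p = 0.328). Of 42 longevity regulators, kri-1, a scaffold needed for the long life of worms without germ cells, rose (1.11), and so did nhr-62, a nuclear receptor of dietary restriction (1.03). With empty vector 2 left out kri-1 did not pass (0.83, adjusted p = 0.151), and nhr-62 did not pass without any of 4 libraries, with adjusted p between 0.0508 without empty vector 1 and 0.126 without daf-2 RNAi 2. hlh-30, the worm's TFEB and a driver of lysosomal genes, stood at 0.34 (adjusted p = 0.365). In the dauer list of 27 genes daf-12, the steroid hormone receptor of the dauer decision, rose (20.1 and 29.5 CPM, against 8.79 and 13.03 CPM in empty vector, log2 1.12, adjusted p = 0.0386). dhs-16, a dehydrogenase in the synthesis of its ligand, fell (0.102 and 0.0605 CPM, against 1.88 and 1.58 CPM in empty vector, log2 -1.33, adjusted p = 0.00996). The daf-12 call was lost without daf-2 RNAi 1 (0.97, adjusted p = 0.278) and without empty vector 2 (0.94, adjusted p = 0.205). Among 16 genes of the TOR pathway 0 were called by limma, with 1 at an unadjusted p under 0.05.

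Some genes for metals, hydrogen sulfide and hypoxia rose. Of 41 metal handling genes 8 rose, 1 fell and 32 were not called (median 0.22), with 4 rises without daf-2 RNAi 2 and 5 without empty vector 2. The metallothionein gene mtl-1, which binds cadmium and zinc, reached 1736 and 607 CPM under daf-2 RNAi, against 431 and 180 CPM in empty vector (log2 1.88, SE 0.23, adjusted p = 0.00156). Both daf-2 RNAi libraries were above both empty vector libraries, and repeat 1 was the higher of each group. The cadmium-responsive genes cdr-2 (97.8 and 82.3 CPM, against 38.2 and 24.4 CPM in empty vector, log2 1.52) and cdr-3 (3.69 and 5.45 CPM, against 0.508 and 0.295 CPM, log2 1.98) rose together and are close neighbours on chromosome V. The ferritin gene ftn-1, an iron store, rose by 1.30 on the log2 scale, and its call was lost without daf-2 RNAi 1 (0.94, adjusted p = 0.224) and empty vector 1 (1.02, adjusted p = 0.0726). The second ferritin gene, ftn-2, was at -0.33 (adjusted p = 0.364).

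Of 18 genes of hypoxia and hydrogen sulfide 4 rose (22.2%, beside 4.31% of all tested genes) and 0 fell (median 0.58). Above 0 were 16 of the 18, beside 6651 of all 14378 tested genes. Without cav-1 RNAi 2, 7 rose. nhr-57, a nuclear receptor gene used as a reporter of the hypoxia factor HIF-1, reached 8.99 and 17.6 CPM, against 3.48 and 3.61 CPM in empty vector (log2 1.58, SE 0.30, adjusted p = 0.0115). gst-19, a glutathione transferase gene, rose to 3.14 and 4.45 CPM, against 0.508 and 0.736 CPM (log2 1.55, adjusted p = 0.00513). rhy-1, a membrane protein that limits HIF-1 (1.32), and sqrd-1, the sulfide quinone oxidoreductase (1.28), were called too. The rhy-1 call was lost without daf-2 RNAi 2 (1.37, adjusted p = 0.0588), and the sqrd-1 call without daf-2 RNAi 1 (1.11, adjusted p = 0.164) and empty vector 1 (0.95, adjusted p = 0.122). Among 24 genes for superoxide dismutases, catalases and peroxidases, sod-3 and the glutathione peroxidase gene gpx-5 were called (4 rose without empty vector 1, 6 without cav-1 RNAi 2 and 1 without daf-2 RNAi 1), while the catalase genes ctl-1 and ctl-2 stood at 0.87 (adjusted p = 0.0830) and 0.76 (adjusted p = 0.108). The gpx-5 call (0.92) was lost without any of the daf-2 RNAi or empty vector libraries, with adjusted p from 0.0553 to 0.496.

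Calls among enzymes of central metabolism made up 9.68% of the glycolysis list, 9.68% of the methionine list and 11.3% of the fatty acid oxidation list, beside 7.44% of all tested genes. Of 31 glycolysis and gluconeogenesis genes 3 rose and 0 fell (median 0.18), with 0 rises without daf-2 RNAi 1 and 1 without daf-2 RNAi 2 or empty vector 2. The glyceraldehyde-3-phosphate dehydrogenase genes gpd-2 and gpd-3, close copies whose counts may be divided between them, were both called. gpd-2 reached 684 and 777 CPM under daf-2 RNAi, against 295 and 394 CPM in empty vector (log2 1.09), and gpd-3 860 and 931 CPM, against 450 and 518 CPM (log2 0.89). The call of gpd-2 was lost without daf-2 RNAi 1 (0.99, adjusted p = 0.121), and that of gpd-3 without each library but cav-1 RNAi 1, with adjusted p from 0.0704 to 0.173. Of 31 genes of methionine and vitamin B12 metabolism 3 rose (1 without daf-2 RNAi 1 and 5 without empty vector 1), among them dao-3, a folate cycle dehydrogenase, at 118 and 127 CPM, against 33.95 and 53.9 CPM in empty vector (log2 1.49, SE 0.24, adjusted p = 0.00564). The dao-3 call was lost without daf-2 RNAi 1 (1.25, adjusted p = 0.0654).

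Of 62 genes of fatty acid activation and oxidation 4 rose and 3 fell (median 0.09), with 1 fall without daf-2 RNAi 2 and 5 without cav-1 RNAi 2. The acyl-CoA synthetase gene acs-17 reached 76.8 and 157 CPM, against 28.9 and 36.4 CPM in empty vector (log2 1.73, SE 0.28, adjusted p = 0.00527), and the hydroxyacyl-CoA dehydrogenase gene hacd-1 480 and 429 CPM, against 115 and 228 CPM (log2 1.48, adjusted p = 0.00990). The hacd-1 call was lost without daf-2 RNAi 1 (1.11, adjusted p = 0.0783) and empty vector 1 (1.02, adjusted p = 0.0575). acs-2, the synthetase induced by fasting, stood at -0.86 (adjusted p = 0.198). Of 23 lipases the lysosomal lipase gene lipl-4, known to lengthen life when raised in the intestine, was the single call (10.7 and 9.02 CPM, against 3.56 and 2.69 CPM in empty vector, log2 1.40, SE 0.26, adjusted p = 0.0107). Without cav-1 RNAi 2, 4 lipases rose and 2 fell, and without empty vector 1, 2 rose and 2 fell. The glutathione transferase gene gst-3 rose to 21.4 and 10.3 CPM, against 1.68 and 0.773 CPM (log2 2.87, SE 0.26, adjusted p = 0.000365), as did the omega class member gsto-1, to 78.3 and 110 CPM, against 27.3 CPM in both empty vector libraries (log2 1.73).

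The share of transporters called was near that of all tested genes (7.44%), at 5.62% of solute transporters and 8.33% of ABC transporters. Of 89 solute transporters 4 rose and 1 fell, and between 2 (without daf-2 RNAi 1) and 13 (without cav-1 RNAi 2) rose with a library left out. Of 48 ABC transporters 3 rose and 1 fell, and between 1 (without daf-2 RNAi 1) and 8 (without empty vector 1) rose. swt-6, a sugar transporter of the SWEET family, reached 359 and 185.8 CPM, against 132 and 45.3 CPM in empty vector (log2 1.72, SE 0.24, adjusted p = 0.00264). pgp-1, a P-glycoprotein that exports xenobiotics, reached 18.01 and 24.5 CPM, against 3.20 and 8.39 CPM (log2 1.81, SE 0.30, adjusted p = 0.00603).

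**Figure D3:**
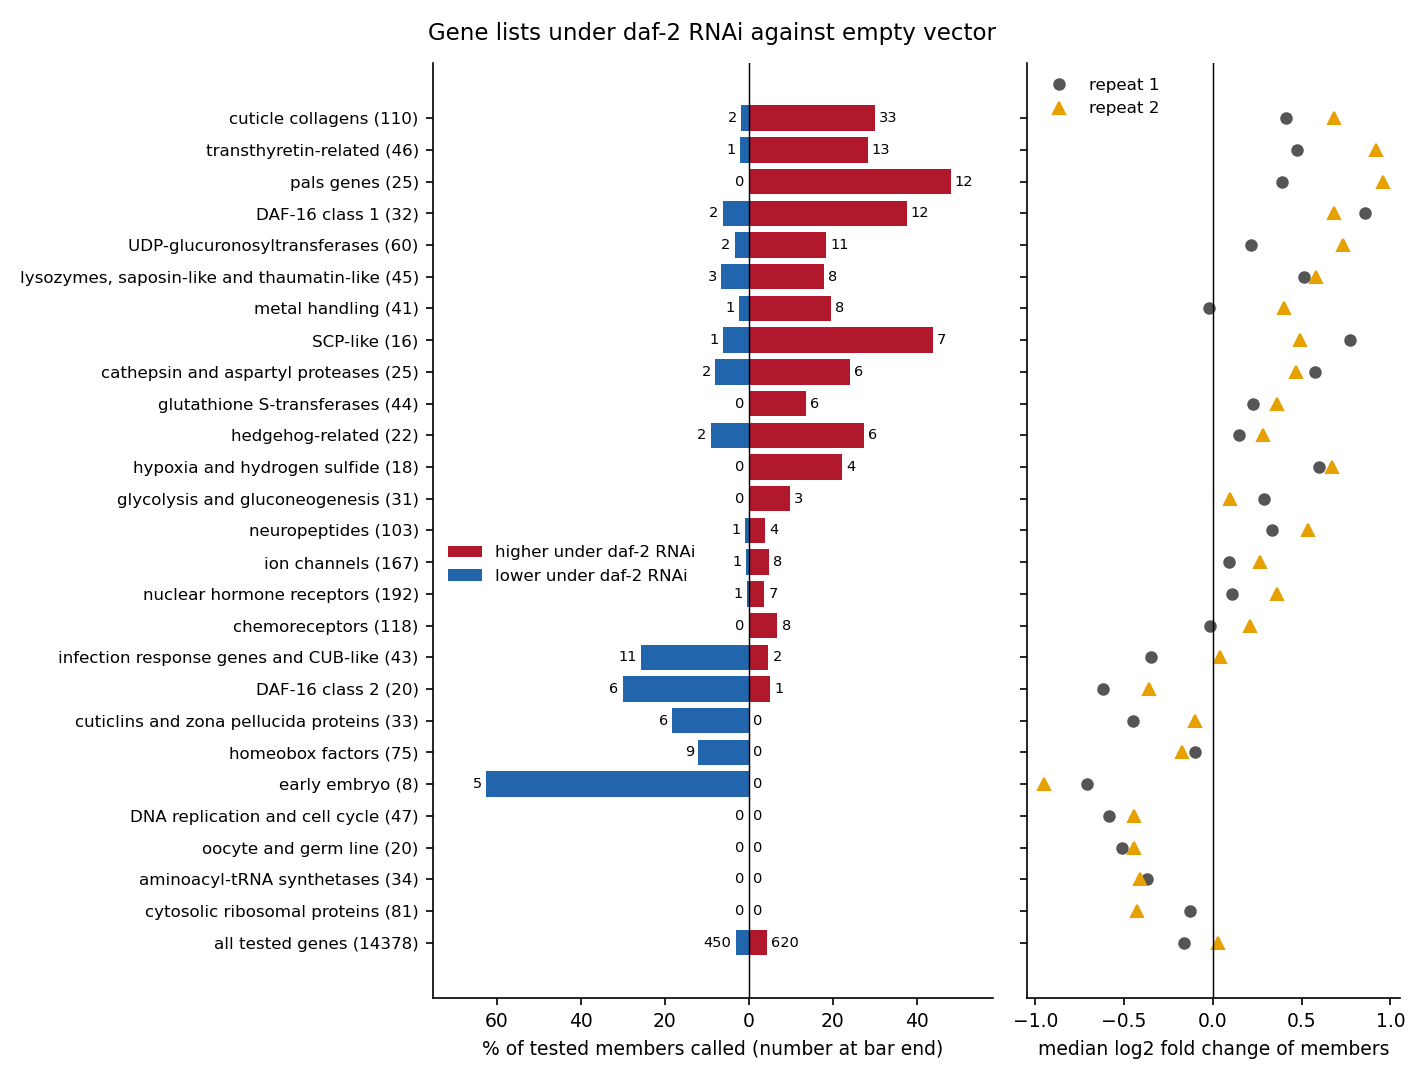
Left, percent of the tested members of each gene list called higher (right of 0) or lower (left of 0) under daf-2 RNAi, with the number called at the bar end and the number tested in brackets. Right, the median log2 fold change of the members in repeat 1 (circles) and repeat 2 (triangles), with collagens, transthyretin-related and pals genes above 0 in both and the early embryo list below 0 in both.

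Genes of immunity and digestion went both ways by family. Of 25 tested pals genes, a worm family in which many members rise on infection of the gut by microsporidia or virus, 12 rose and 0 fell (median 0.63, beside -0.05 for all tested genes). Without empty vector 2 the count was 3. B0284.1, named pals-26 in the reference list, reached 26.2 and 21.9 CPM, against 9.69 and 3.72 CPM in empty vector (log2 1.82, SE 0.31, adjusted p = 0.00736). W08A12.4, named pals-33, reached 7.01 and 6.47 CPM, against 1.41 and 1.33 CPM (log2 1.71, SE 0.24, adjusted p = 0.00295). Both genes separated the groups without overlap. Of 45 lysozyme, saposin-like and thaumatin-like genes 8 rose (17.8%) and 3 fell (6.67%), with a median of 0.58, beside 4.31% and 3.13% of all tested genes. All 8 rises were among its 26 saposin-like genes, whose products include pore-forming antimicrobial peptides, and no lysozyme or thaumatin-like gene was called higher. Of these 26, a part chosen after values were seen, 8 rose and 1 fell (median 0.72). Y26G10.7, named spp-29, reached 12.03 and 6.81 CPM, against 0.781 and 0.920 CPM (log2 2.45, SE 0.25, adjusted p = 0.000665). spp-12 reached 18.1 and 10.5 CPM, against 3.98 and 2.14 CPM in empty vector (log2 1.91, adjusted p = 0.00333), and spp-20 4.82 and 4.72 CPM, against 1.52 and 0.184 CPM (log2 1.74, adjusted p = 0.00355).

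In the infection response and CUB-like list 2 of 43 genes rose and 11 fell. The median was -0.12, at -0.35 in repeat 1 and 0.04 in repeat 2, and it lay above 0 without daf-2 RNAi 1 (0.14) or empty vector 1 (0.09). The rises numbered 4 without daf-2 RNAi 1, 5 without empty vector 1 and 6 without cav-1 RNAi 2, and the falls between 8 and 16 with a library left out. C32H11.4, a CUB-like gene at chrIV:12921264-12923296, stood at 0.752 and 2.18 CPM under daf-2 RNAi, against 83.6 and 103 CPM in empty vector (log2 -5.31, SE 0.33, adjusted p = 3.48e-05). F08G5.6, named irg-4 for its rise on infection, stood at 2.67 and 3.33 CPM, against 48.3 and 41.5 CPM (log2 -3.52, SE 0.26, adjusted p = 0.000133). F35E12.5, named irg-5, fell to 3.52 and 2.81 CPM, against 17.7 and 8.98 CPM (log2 -1.72, adjusted p = 0.00542). The groups did not overlap in any of the 3. The chitinase gene cht-1 fell to 11.9 and 5.23 CPM, against 64.2 and 85.6 CPM in empty vector (log2 -3.07, SE 0.32, adjusted p = 0.000700). lys-7, a lysozyme gene raised by DAF-16, stood at 1400 and 814 CPM, against 378 and 603 CPM, and missed the threshold (log2 1.16, adjusted p = 0.0503).

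Of 25 cathepsin and aspartyl protease genes 6 rose and 2 fell (median 0.38), with 3 rises without the filter on low counts. asp-18 reached 5.78 and 2.60 CPM, against 0.625 and 0.405 CPM in empty vector (log2 1.71, SE 0.23, adjusted p = 0.00253). W07B8.1, named cpr-8 for its similarity to cathepsin B, reached 24.5 and 49.1 CPM, against 9.77 and 13.7 CPM (log2 1.51, adjusted p = 0.00761). cpr-4, a secreted cathepsin B, fell to 50.9 and 168 CPM, against 187 and 294 CPM (log2 -1.33, adjusted p = 0.0153), and its call was lost without daf-2 RNAi 1 (-0.99, adjusted p = 0.139) and empty vector 1 (-0.85, adjusted p = 0.152).

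Calls among secreted proteins of the body wall and body fluid were mostly rises. Of 46 transthyretin-related genes, a large nematode family of small secreted proteins, 13 rose (28.3%), 1 fell and 32 were not called (median 0.70). Above 0 were 44 of the 46, beside 6651 of all 14378 tested genes, of which 4.31% rose. The count of rises was 3 without empty vector 2, 4 without daf-2 RNAi 2 6 without the filter on low counts and 6 with a trend against transcript length removed from each library. ttr-26 reached 153 and 79.7 CPM, against 42.1 and 18.2 CPM in empty vector (log2 1.95, SE 0.24, adjusted p = 0.00165). ttr-50 was the single fall (39.9 and 10.3 CPM, against 96.3 and 35.1 CPM, log2 -1.46), and its call was lost without daf-2 RNAi 2 (-1.06, adjusted p = 0.181). Of 16 SCP-like genes, secreted cysteine-rich proteins, 7 rose and 1 fell (median 0.91), with 4 rises without daf-2 RNAi 1 or cav-1 RNAi 1 and 3 with the length trend removed. scl-13 reached 7.21 and 4.33 CPM, against 0.0781 and 0.368 CPM (log2 2.44, SE 0.24, adjusted p = 0.000600), and scl-12 15.8 and 10.3 CPM, against 3.20 and 2.80 CPM (log2 1.78, adjusted p = 0.00333). The empty vector levels of scl-13 rest on few counts. The 7 rises were 43.8% of the SCP-like genes, beside 4.31% of all tested genes. The 16 genes summed to 355 and 232 CPM under daf-2 RNAi, against 304 and 394 CPM in empty vector, so their sum was lower in repeat 2.

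Cuticle collagens, the structural proteins of the worm's outer layer, gave 33 rises and 2 falls among 110 tested genes (median 0.60). These were 30% and 1.82% of the list, beside 4.31% and 3.13% of all tested genes. The collagen rises numbered 23 in the 4 libraries alone and 26 without the filter on low counts. They numbered 26 with the length trend removed and 36 with total counts. With a library left out the collagen median ran from 0.49 (empty vector 2) to 0.78 (daf-2 RNAi 1). col-94 reached 30.1 and 55.2 CPM, against 2.07 and 9.79 CPM in empty vector (log2 2.86, SE 0.30, adjusted p = 0.000676), and col-129 47.6 and 179 CPM, against 14.1 and 24.9 CPM (log2 2.24, SE 0.29, adjusted p = 0.00204). The adult collagen col-19 was called at 0.93, and lost its call without daf-2 RNAi 1 (1.01, adjusted p = 0.0876), daf-2 RNAi 2 (1.08, adjusted p = 0.0884), empty vector 2 (0.66, adjusted p = 0.380) and cav-1 RNAi 2 (0.93, adjusted p = 0.0684). Of 22 hedgehog-related genes 6 rose (27.3%) and 2 fell (9.09%), with a median of 0.24, beside 4.31% and 3.13% of all tested genes. The rises were all 6 tested groundhog genes, which encode secreted proteins of this family (median 1.04), a set picked after values were seen. Without empty vector 2, 1 of them passed, and 2 without daf-2 RNAi 1 or daf-2 RNAi 2. With the length trend removed 3 passed, and without the filter on low counts 4. grd-10 reached 3.45 and 7.02 CPM, against 0.860 and 0.920 CPM in empty vector (log2 1.66, SE 0.26, adjusted p = 0.00475).

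Some other extracellular genes fell. Of 33 cuticlins and zona pellucida proteins, which are proteins of the extracellular matrix, 0 rose and 6 fell (median -0.45), while 11 fell without cav-1 RNAi 2 and 3 with the length trend removed. cutl-16 stood at 2.12 and 0.756 CPM, against 37.7 and 19.04 CPM in empty vector (log2 -3.57, SE 0.37, adjusted p = 0.000665). cutl-9 stood at 0.410 and 0.121 CPM, against 3.59 and 3.46 CPM (log2 -1.85, SE 0.27, adjusted p = 0.00333). wrt-10, a warthog gene of the hedgehog-related family, fell to 1.98 and 0.786 CPM, against 12.8 and 7.29 CPM (log2 -2.21, SE 0.34, adjusted p = 0.00401). The patched-related gene ptr-22 fell to 1.57 and 1.24 CPM, against 6.41 and 5.49 CPM (log2 -1.53, adjusted p = 0.0152).

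F-box B genes gave 53 of the 450 falls. F-box proteins hold a substrate to an SCF ubiquitin ligase by binding its SKP1-related subunit, and the worm has a very large number of them, in groups A, B and C. The F-box groups and the lists of SKP1-related, sdz, T-box and linker histone genes below were chosen after values were seen. Of 113 F-box B genes named in the files 95 were tested, of which 53 fell and 0 rose, or 55.8%, beside the 3.13% of all tested genes that fell. In the wider list of F-box and MATH/BTB genes, 11 of 345 rose and 70 fell, with 31 falls without daf-2 RNAi 2, 62 rises without empty vector 1 and 39 without cav-1 RNAi 2. With genes under a mean of 5 CPM left out, 99 of that list remained, of which 1 rose and 6 fell. Their median was 0.006, against -0.18 for the 345. All 95 F-box B genes were below 0, 91 of them in both repeats, beside 42.8% of all tested genes. In 74 of the 95 (77.9%) the groups did not overlap, beside 27.7% of all tested genes. For a list chosen after values were seen this is no separate support. The median was -0.93 (-0.999 in repeat 1 and -0.87 in repeat 2). The members ranged from -2.27 to -0.05. Their median level was 1.24 CPM, so single members rest on few counts, and reads of near-identical members may be divided among them.

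fbxb-66, at chrI:13423997-13425148, stood at 4.17 and 0.544 CPM, against 20.8 and 7.47 CPM in empty vector (log2 -2.27, SE 0.29, adjusted p = 0.00179). fbxb-54 stood at 2.90 and 0.423 CPM, against 12.9 and 4.86 CPM (log2 -1.94, SE 0.25, adjusted p = 0.00204). fbxb-10 stood at 1.09 and 0.121 CPM, against 7.31 and 2.98 CPM (log2 -1.91, SE 0.25, adjusted p = 0.00198). In each the daf-2 RNAi libraries lay below both empty vector libraries, and repeat 2 was the lower of each group. The 95 members summed to 121 and 35.7 CPM under daf-2 RNAi, against 364 and 150 CPM in empty vector, with 286 and 156 CPM under cav-1 RNAi. Set against cav-1 RNAi, where 3.74% of all genes were called lower, 55 fell (median -0.93), a contrast that shares the daf-2 RNAi libraries. Against empty vector 20 F-box B genes fell without daf-2 RNAi 2 and 75 without cav-1 RNAi 2.

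The other groups differed in counts. Of 37 F-box C genes 2 rose and 14 fell (median -0.48), and 9 fell without daf-2 RNAi 2. fbxc-40 stood at 2.32 and 0.514 CPM, against 8.71 and 8.43 CPM in empty vector (log2 -2.09, SE 0.32, adjusted p = 0.00411). Of 150 F-box A genes 9 rose and 0 fell (median 0.24, at -0.09 in repeat 1 and 0.49 in repeat 2). The F-box A rises numbered 14 without daf-2 RNAi 1, 48 without empty vector 1, 5 without empty vector 2 and 32 without cav-1 RNAi 2. fbxa-165 reached 7.28 and 9.07 CPM, against 1.25 and 1.88 CPM (log2 1.84, SE 0.22, adjusted p = 0.00159). Of 20 SKP1-related genes 7 fell and 1 rose, and without daf-2 RNAi 2 none of the falls passed. skr-7, an adaptor of SCF ligases, stood at 19.5 and 17.4 CPM, against 54.4 and 60.1 CPM in empty vector (log2 -1.59, SE 0.24, adjusted p = 0.00393, and adjusted p = 0.0718 without daf-2 RNAi 2). Of 63 MATH and BATH genes 0 rose and 3 fell, with 1 fall without daf-2 RNAi 1, 12 rises without empty vector 1 and 5 rises without cav-1 RNAi 2.

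Calls among genes of the early embryo were mostly falls. Of 27 sdz genes, named for their need for the maternal factor SKN-1 in the zygote, 12 fell and 1 rose (median -0.79), while 2 fell without daf-2 RNAi 2 and 4 without the filter on low counts. sdz-10 stood at 1.02 and 0.0907 CPM, against 4.77 and 2.06 CPM in empty vector (log2 -1.50, SE 0.21, adjusted p = 0.00283). In the early embryo list 5 of 8 fell (median -0.85), with 0 falls without daf-2 RNAi 2 and 3 without empty vector 2 or cav-1 RNAi 1, and 2 without the filter. Of 12 T-box factors 4 fell and all 12 were below 0 in both repeats, and 1 fell without daf-2 RNAi 2. tbx-43 stood at 0.308 and 0.242 CPM, against 2.70 and 3.68 CPM (log2 -1.71, SE 0.21, adjusted p = 0.00179). With genes under a mean of 5 CPM left out, 3 of the early embryo list remained and 0 fell. hch-1, the protease that digests the eggshell at hatching, stood at 0.137 and 0.121 CPM, against 2.31 and 3.61 CPM in empty vector (log2 -1.79, SE 0.40, adjusted p = 0.0222).

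Of 75 homeobox factors 9 fell and 0 rose (median -0.13), and between 7 and 9 fell with any library left out, while 3 rose without cav-1 RNAi 2. With genes under a mean of 5 CPM left out, 2 of the 31 homeobox factors that remained fell. ceh-43, the Distal-less homolog of anterior tissues at chrIII:4446638-4449943, stood at 4.17 and 1.45 CPM, against 30.2 and 23.2 CPM in empty vector (log2 -2.95, SE 0.31, adjusted p = 0.000683). unc-39, a homeobox factor of mesoderm, stood at 0.376 and 0.151 CPM, against 7.50 and 8.91 CPM (log2 -2.87, SE 0.26, adjusted p = 0.000363). ceh-32, a homeobox factor of the head, stood at 1.40 and 2.87 CPM, against 14.5 and 23.1 CPM (log2 -2.66, SE 0.31, adjusted p = 0.00138). ces-2, a bZIP factor that directs the death of particular neurons in the embryo, stood at 2.87 and 0.575 CPM, against 22.1 and 11.4 CPM (log2 -2.78, SE 0.32, adjusted p = 0.00130). In all of these genes both empty vector libraries were several times higher than either daf-2 RNAi library. his-24, a linker histone at chrX:14490094-14491119, fell to 61.8 and 22.9 CPM, against 173 and 202 CPM in empty vector (log2 -2.28, SE 0.33, adjusted p = 0.00333), as did 3 more of the 8 linker histones. Without daf-2 RNAi 2, 2 of the 8 fell.

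Markers of dividing cells and of the germ line gave no calls but lay below 0. Of all tested genes 42.8% were below 0 in both repeats (median -0.05). The median was -0.22 for all genes of 20 to 100 CPM and -0.26 for those over 100 CPM. The lists below were not set against genes of like level. Among 47 genes of DNA replication and the cell cycle 0 were called by limma, 21 lay at an unadjusted p under 0.05, 0 lay above 0 and 45 were below 0 in both repeats (median -0.53). All 20 oocyte and germ line markers were below 0 in both repeats (median -0.50), with 0 called and 9 at an unadjusted p under 0.05. Without cav-1 RNAi 1, 6 genes of DNA replication and the cell cycle and 2 of oocyte and germ line fell, and without cav-1 RNAi 2, 3 of DNA replication and the cell cycle did, against 1 without empty vector 1. Of 34 aminoacyl-tRNA synthetases 0 lay above 0 (median -0.36), with 3 at an unadjusted p under 0.05. The strain is sterile at this temperature, and how many germ cells or embryos each library held was not measured. The part these markers have in the falls of embryonic and F-box genes was not tested.

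**Figure D4:**
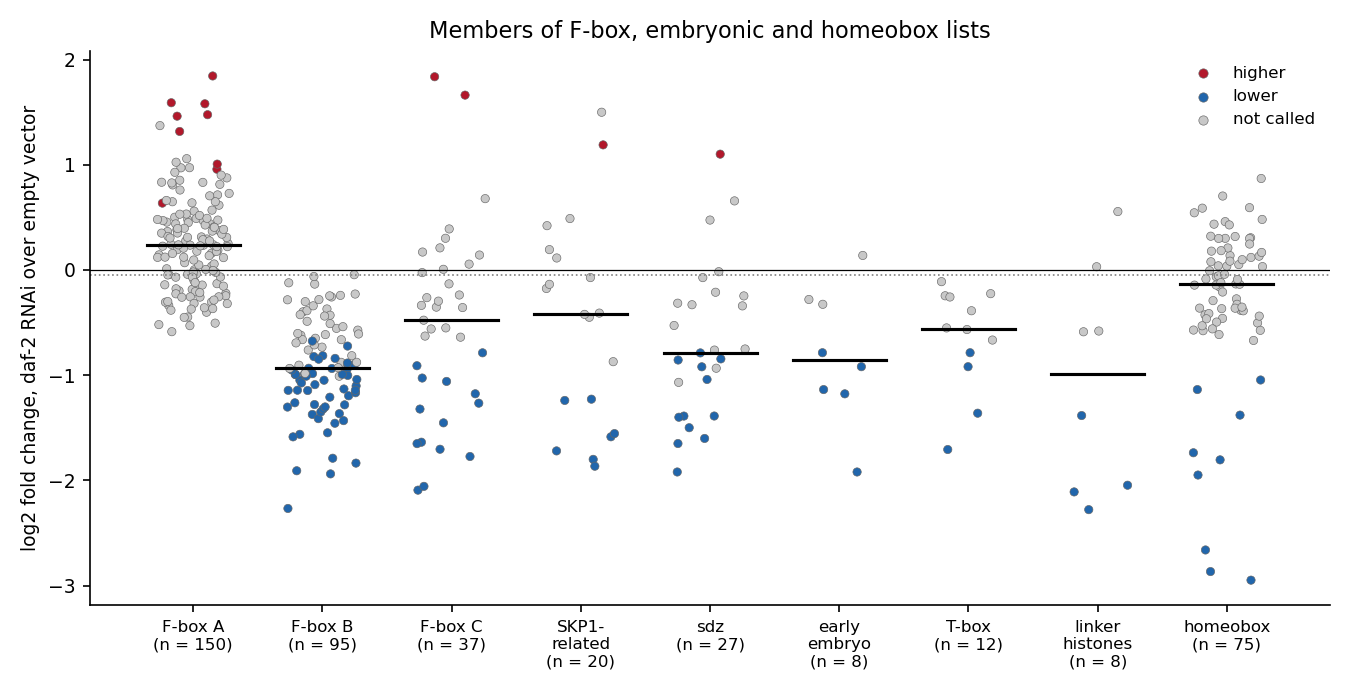
Log2 fold change of daf-2 RNAi over empty vector for each tested member of 9 lists, with called genes in colour, bars for the list median and a dotted line at -0.05, the median of all tested genes. All 95 F-box B genes and all 12 T-box factors lie below 0, while the F-box A median is 0.24.

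Most genes of the nervous system lay above 0 without passing the test. Of 103 neuropeptide genes 87 were above 0, beside 6651 of all 14378 tested genes. Of the 103, 4 rose (3.88%, beside 4.31% of all tested genes) and 1 fell (median 0.47). The rises numbered 2 without daf-2 RNAi 2, 1 without empty vector 2, 12 without empty vector 1, 18 without cav-1 RNAi 2 and 1 with the length trend removed. They were led by nlp-24, also counted among the antimicrobial peptides of the epidermis (41.0 and 65.7 CPM, against 13.3 and 10.4 CPM in empty vector, log2 2.05, SE 0.29, adjusted p = 0.00301). Of 16 neuron markers 15 lay above 0 and 0 were called by limma (median 0.47), with 5 at an unadjusted p under 0.05 and 3 called without cav-1 RNAi 2. The proprotein convertase gene egl-3, which cuts neuropeptide precursors, stood at 33.5 and 49.1 CPM, against 13.8 and 34.5 CPM (log2 0.86, adjusted p = 0.0900). Markers of other somatic tissues differed in direction. Of 14 intestine markers 5 lay above 0, and 1 rose and 3 fell (median -0.29). Of 12 hypodermis markers 4 lay above 0, and 2 rose and 1 fell (median -0.32). The calls were 28.6% and 25% of these lists, beside 7.44% of all tested genes. Of 15 muscle markers 14 lay above 0 and 1 was called (median 0.53), with 4 called without cav-1 RNAi 2, 3 without empty vector 1 or cav-1 RNAi 1, 2 without daf-2 RNAi 2 and 0 without daf-2 RNAi 1. Among 26 insulin-like peptides, ligands of DAF-2, 5 rose and 1 fell, with 3 rises without daf-2 RNAi 1 and 8 without cav-1 RNAi 2. ins-23 reached 9.57 and 7.53 CPM, against 1.17 and 0.258 CPM in empty vector (log2 2.52, SE 0.23, adjusted p = 0.000387), and ins-12 4.75 and 2.96 CPM, against 1.02 and 0.0736 CPM (log2 1.699, adjusted p = 0.00221). ins-35 reached 1.95 and 14.1 CPM, against 0.156 and 0.111 CPM (log2 2.56, SE 0.47, adjusted p = 0.00958). ins-7, an agonist known to be lowered by DAF-16, stood at -0.76 (adjusted p = 0.147).

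Of 118 chemoreceptor genes with enough counts 8 rose and 0 fell (median 0.08), and of 167 ion channels 8 rose and 1 fell (median 0.18). With a library left out the chemoreceptor rises ran from 4 (without daf-2 RNAi 2 or empty vector 2) to 18 (without cav-1 RNAi 2), and those of the ion channels from 3 (without empty vector 2) to 17 (without empty vector 1). Without the filter on low counts 1 ion channel gene rose and 3 fell, and with genes under a mean of 5 CPM left out 1 rose. The rises made up 6.78% of chemoreceptors and 4.79% of ion channels, beside 4.31% of all tested genes. Counted in either direction, 6.78% of chemoreceptors were called, beside 7.44% of all tested genes. The chemoreceptor gene srg-31 reached 1.85 and 3.30 CPM, against 0.352 and 0.184 CPM in empty vector (log2 1.47, SE 0.21, adjusted p = 0.00333). Of 192 nuclear hormone receptor genes 7 rose, or 3.65%, and 1 fell (median 0.23), with 3 rises without the filter, 2 without empty vector 2, 22 without cav-1 RNAi 2 and 29 without empty vector 1. The bHLH factor gene hlh-13 rose to 10.7 and 4.14 CPM, against 2.54 and 0.884 CPM (log2 1.59, SE 0.23, adjusted p = 0.00333).

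Called genes lay side by side in places. In 13 stretches at least 5 of 10 tested genes in a row were called in 1 direction, 9 of them lower with 76 called genes and 4 higher with 24. Among the 76 were 29 F-box B, 8 F-box C, 6 sdz and 4 BTB genes, and 5 of the 9 lower stretches were on chromosome II. The densest lay at chrII:2123687-2148792 (WBcel235), where 7 of 7 tested genes fell, among them sdz-28, sdz-29 and C40A11.4. At chrII:1670829-1762918 14 of 28 fell, at chrII:950842-1060802 13 of 21 while 2 rose, and at chrV:19201016-19321351 14 of 27. In a lower stretch without F-box genes, chrIV:12918556-12969289, 5 of 9 fell, namely C32H11.3, C32H11.4, dod-24, dod-22 and F55G11.2. A higher stretch at chrV:12414656-12446995 held 6 called of 10, among them cdr-2, cdr-3 and the pals genes dct-3 and C54D10.8. Without daf-2 RNAi 2 the calls of sdz-28 (-1.02, adjusted p = 0.225) and sdz-29 (-0.71, adjusted p = 0.281) were lost, as were those of C32H11.3 without daf-2 RNAi 1 (-0.90, adjusted p = 0.0626) and dct-3 without empty vector 2 (0.88, adjusted p = 0.183). Neighbouring copies can share reads, and the counting of shared reads is not given in the sources used here.

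By chromosome, 10.8% of tested genes were called on V (214 higher and 93 lower) and 9.34% on II (92 higher and 140 lower). The share was 8.26% on X, 6.46% on IV, 4.62% on I and 4.46% on III. Of 95 F-box B genes, 54 were on II, where 29 fell, and 14 on V, where 10 fell.

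Fold changes also varied with transcript length and with the repeat. The median log2 fold change was 0.17 for genes of up to 500 nt and -0.24 for those between 2000 and 5000 nt. For the shortest genes it was -0.03 in repeat 1 and 0.30 in repeat 2, and for those between 2000 and 5000 nt -0.28 and -0.19. With a trend against length removed from each library 917 genes were called, 506 higher and 411 lower. The share called was 14.4% for genes of 1 to 5 CPM and 4.62% for those over 100 CPM.

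**Figure D5:**
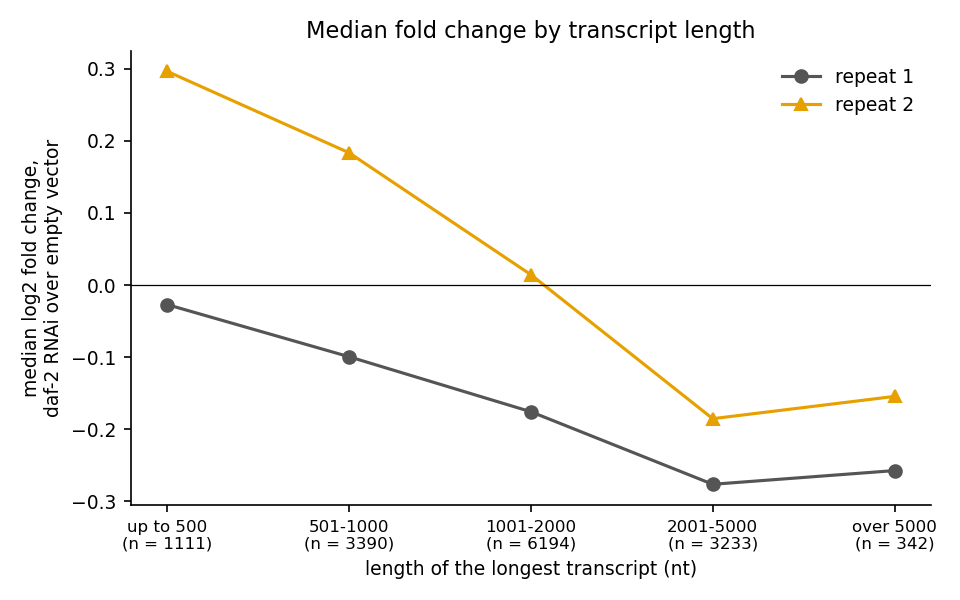
Median log2 fold change of daf-2 RNAi over empty vector by length of the longest transcript, in repeat 1 (circles) and repeat 2 (triangles), with the number of tested genes under each bin. The median goes down with length in both repeats as far as 5000 nt, and more steeply in repeat 2.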

How the data were processed

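RNA of whole worms was sequenced on poly(A)-selected, stranded libraries, 2 biological repeats of each of 3 groups. The deposited table held raw read counts per gene, which were used, and the authors' fold changes and p-values, which were not. The submitters' processing notes name TopHat2 2.0.13, Cufflinks 2.2.1, cutadapt 1.7.1, DESeq2 1.10.1 and bcl2fastq 2.15.0.4, without roles, and the WBcel235 genome. How reads were assigned to genes, on which strand and with which treatment of multiple hits is not given in the sources used. Cells without a number were treated as missing. Counts were divided by library size scaled by trimmed means (trim 30% of log ratios and 5% of levels; factors 0.922 to 1.04). Genes with at least 0.348 CPM in 2 libraries and 15 counts in all were kept, 14378 genes with 99.96% of the counts. log2(CPM + 1) of all 6 libraries was fitted with limma 3.58.1 (R 4.3.3), with group and repeat as terms, a trended prior and Benjamini-Hochberg adjustment, and the procedure was tested on simulated data. A log-scale test was used because cells without a number kept the table from being handled as counts. Fits that leave out a library borrow the spread from the others and assume that a lone sample varies like them. Each of these fits estimates that spread anew, so calls can be gained or lost while a fold change hardly moves. The design text puts 1 sample of each group in each repeat, so the repeat is a block, and deviations from group means correlated at 0.891 between empty vector and daf-2 RNAi, 0.807 between empty vector and cav-1 RNAi and 0.812 between daf-2 RNAi and cav-1 RNAi. Named genes were taken from daf-2 and cav-1, the 8 called genes each way with the largest difference in CPM, up to 4 called members of each list by size of fold change with a mean of at least 1 CPM, genes fixed by name for a list, and members of runs of called neighbours; those of the lists added later were picked after values were seen. The members and lists were chosen with earlier results of these data known, and the lists of F-box, SKP1-related, sdz, T-box, linker histone, groundhog and saposin-like genes after values were seen. Promoter sequences were not used here.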

Additional observations from a re-analysis of the deposited data

How the results depend on the processing

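Without the replicate block limma called 0 genes, 0 higher and 0 lower, with 777 at an unadjusted p under 0.05 and a smallest adjusted p of 0.215. With genes under a mean of 5 CPM left out, 471 of 9108 were called, 356 higher and 115 lower, so that 75.6% of the calls were higher, against 57.9% with them. With a library left out the calls numbered 665 to 2212, with 314 to 1392 higher and 219 to 820 lower. The remaining settings kept each count within 1.5 times, with 1258 calls in the 4 libraries alone, 1212 with size factors, 1164 with total counts, 829 without the filter, 1135 and 993 with pseudocounts of 0.5 and 2, and 917 with the length trend removed. Size factors moved the median of all genes to -0.10 and total counts to 0.01. The fall of daf-2 was -1.63 without the replicate block (adjusted p = 0.991), -1.59 in the 4 libraries (adjusted p = 0.0658), -1.63 without the filter (adjusted p = 0.0773), -1.54 with the stricter filter (adjusted p = 0.0928) and, once a length trend was taken out, -1.51 (adjusted p = 0.0636), and it ran from -2.50 to -0.53 with a library left out. Of 96 other called genes named here none changed direction in any setting. All 96 kept their call with total counts and both pseudocounts, 91 with size factors, 90 in the 4 libraries, 93 with the length trend removed and 72 without the filter, and 61 of the 67 that passed the stricter filter. The cause of these losses was not tested. The 2 repeats left 2 residual degrees of freedom, which limits the precision of every fold change.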

Other observations

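Outside protein-coding genes, pseudogenes were mostly lower among those called, with 6 of 454 tested higher and 26 lower (7.05% called). Of 61 lincRNA genes 2 rose and 3 fell, and of 48 antisense genes 4 rose and 2 fell. The strand setting of the counting is not given in the sources used, and reads of an antisense gene and its partner cannot be told apart.

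Among genes of at least 5 CPM on average, 5 changed over 2-fold in opposite directions in the repeats. The lactamase-related gene lact-6 had a log2 difference of 1.16 in repeat 1 and -2.62 in repeat 2. T24C4.4 was at -1.17 in repeat 1 and 1.67 in repeat 2, and C49C3.9 at -1.05 and 1.36. W09G12.7 was at -1.29 in repeat 1 and 1.01 in repeat 2, and T19D12.4 at -1.08 and 1.05.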
